A study of Mus musculus with 8 samples.

Results

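The SLC25 family of mitochondrial carriers was examined in hearts of Lrpprc knockout and wildtype mice. The members were all protein-coding genes with a GENCODE mouse symbol that begins with Slc25a and a number, which gave 47 genes among the 50599 records of each library. Total RNA from whole hearts of male C57BL/6N mice aged 12 weeks was sequenced in 8 libraries, 4 per genotype. The knockout mice were homozygous for a loxP-flanked Lrpprc allele (Lrpprc loxP/loxP) and carried Cre, so that the gene was deleted in heart and skeletal muscle. The mice labelled wildtype had the same loxP-flanked alleles without Cre. The promoter driving Cre is not given in the sources used here, and cells of the heart that Cre did not reach were part of the tissue sequenced. Lrpprc encodes an RNA-binding protein that protects mitochondrial mRNAs from decay. Its normalised count was 3424 to 3946 in the wildtype libraries and 504 to 605 in the knockout libraries, so each library matched its label.

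Most SLC25 proteins sit in the inner mitochondrial membrane, which ions and metabolites do not cross freely. Each is built from a repeated module of membrane helices and exchanges or imports a narrow set of substrates, such as ADP for ATP, phosphate, citrate, amino acids or coenzyme A. All are encoded in the nucleus and translated in the cytosol, and those of the inner membrane are then imported. In the beating heart the bulk of the traffic is ADP and phosphate going in and ATP coming out, served by the ADP/ATP carriers and the phosphate carrier. The smaller carriers supply cofactors, carry reducing equivalents and feed fatty acids and amino acids to the matrix.

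The libraries held 35218541 to 47743376 expected counts. Mitochondrial rRNA took 44 to 46.9% of them in wildtype and 65.6 to 67.8% in knockout, and mitochondrial mRNA 9.97 to 10.25% in wildtype and 0.834 to 1.09% in knockout. Knockout replicate 3 stood apart from the other knockout libraries, and its place matters for several carriers. SLC25 members took 0.836% of its counts from nuclear genes, against 0.61 to 0.659% in the other knockout libraries and 0.643 to 0.666% in wildtype. Among the 39 members averaging 10 or more normalised counts it was the highest knockout library for 23 (59%), whereas over all records of that abundance it was the highest for 36.1%. It was also the lowest knockout library for 13 of these members (33.3%), against 30.35% of those records. The heart-type fatty acid binding protein gene Fabp3 stood at 83582 normalised counts there and at 32424 to 38365 in every other library. Member values and counts of calls that turn on this library are therefore given with and without it. The cause of its difference was not tested.

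Whole hearts contain several cell types, and marker sums moved with genotype. Markers are counted as higher or lower at a DESeq2 adjusted p under 0.05, which over all records tested gave 18.2% higher and 15.5% lower. Of 6 ventricular cardiomyocyte markers 5 were lower, and their summed normalised count was 924141 to 1031200 in wildtype and 443424 to 585911 in knockout. Of 5 fibroblast markers 3 were higher, with sums of 16281 to 17043 in wildtype and 15996 to 51342 in knockout, where the lowest was knockout replicate 3. Of 5 macrophage markers 4 were higher (2266 to 2890 against 2573 to 6008) and of 4 smooth muscle markers 2 were lower (5513 to 7139 against 1829 to 4241). Of 5 atrial markers 1 was higher and 2 were lower. Their sum (22320 to 24909 against 35603 to 54641) was higher through Nppa, at a log2 fold change of 1.73, whereas the other 4 had negative values from -0.85 to -3.54. None of 5 endothelial (13367 to 14721 against 9564 to 16738), 5 erythroid (20882 to 27049 against 15231 to 53861) or 5 adipose markers (50.3 to 158 against 5.32 to 138) passed the test in DESeq2. Without knockout replicate 3, 6 ventricular and 3 atrial markers and all 4 smooth muscle markers were lower, 5 macrophage markers and 1 endothelial marker were higher, and the fibroblast, erythroid and adipose counts stayed as they were. No marker was at 0 in all libraries. In bulk tissue, fewer cells of a type and less RNA per cell cannot be told apart, and the part of these shifts in the carrier results below was not tested.

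The question of the comparison was which carriers differ in transcript abundance once Lrpprc is lost. Of the 47 members, 43 could be tested. With DESeq2, 7 were higher and 10 were lower in knockout at a Benjamini-Hochberg adjusted p under 0.05, which is 17 of 43 (39.5%). Over all 19959 records tested the same rule called 33.7%, made up of 18.2% higher and 15.5% lower, so the family's share lay close to the background. These shares are also the background for the counts by substrate group and partner list below, each of which rests on few genes. The median log2 fold change of the tested members was -0.05, beside 0.01 for all records tested. Libraries of the genotypes did not overlap for 17 of the 43 members, against 33.0% of the records tested. Without knockout replicate 3, 6 members were higher and 16 lower, 22 of 42 tested (52.4%), while all records gave 36.6% called and 17.2% lower, and the median of the members was -0.19.

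The carriers that rose were Slc25a5, Slc25a39, Slc25a33, Slc25a1, Slc25a30, Slc25a44 and Slc25a40. Those that fell were Slc25a29, Slc25a42, Slc25a26, Slc25a35, Slc25a47, Slc25a23, Slc25a34, Slc25a38, Slc25a15 and Slc25a11, of which Slc25a15 and Slc25a11 no longer pointed downward when libraries were scaled by total counts without mitochondrial rRNA. In 15 of these 17 the knockout and wildtype libraries did not overlap, the exceptions being Slc25a40 and Slc25a34. Such separation follows in large part from the call itself, and its share among all called records was not computed. Over members tested it was 17 of 43, near the 33.0% of all records tested. The split depended on the scaling: scaling by total counts gave 3 higher and 18 lower, and total counts without mitochondrial rRNA gave 19 higher and 5 lower. All records moved the same way, to 1924 higher and 5912 lower under the former and 7950 higher and 1111 lower under the latter. These scalings moved the median of all records averaging 10 or more normalised counts from 0.02 to -0.28 and 0.45 on the log2 scale. Changes are given here under the median-of-ratios scaling. The direction and the call held under all 15 alternatives for 8 members, namely Slc25a5, Slc25a39 and Slc25a44, which were higher, and Slc25a42, Slc25a29, Slc25a26, Slc25a35 and Slc25a23, which were lower.

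**Figure D1:**
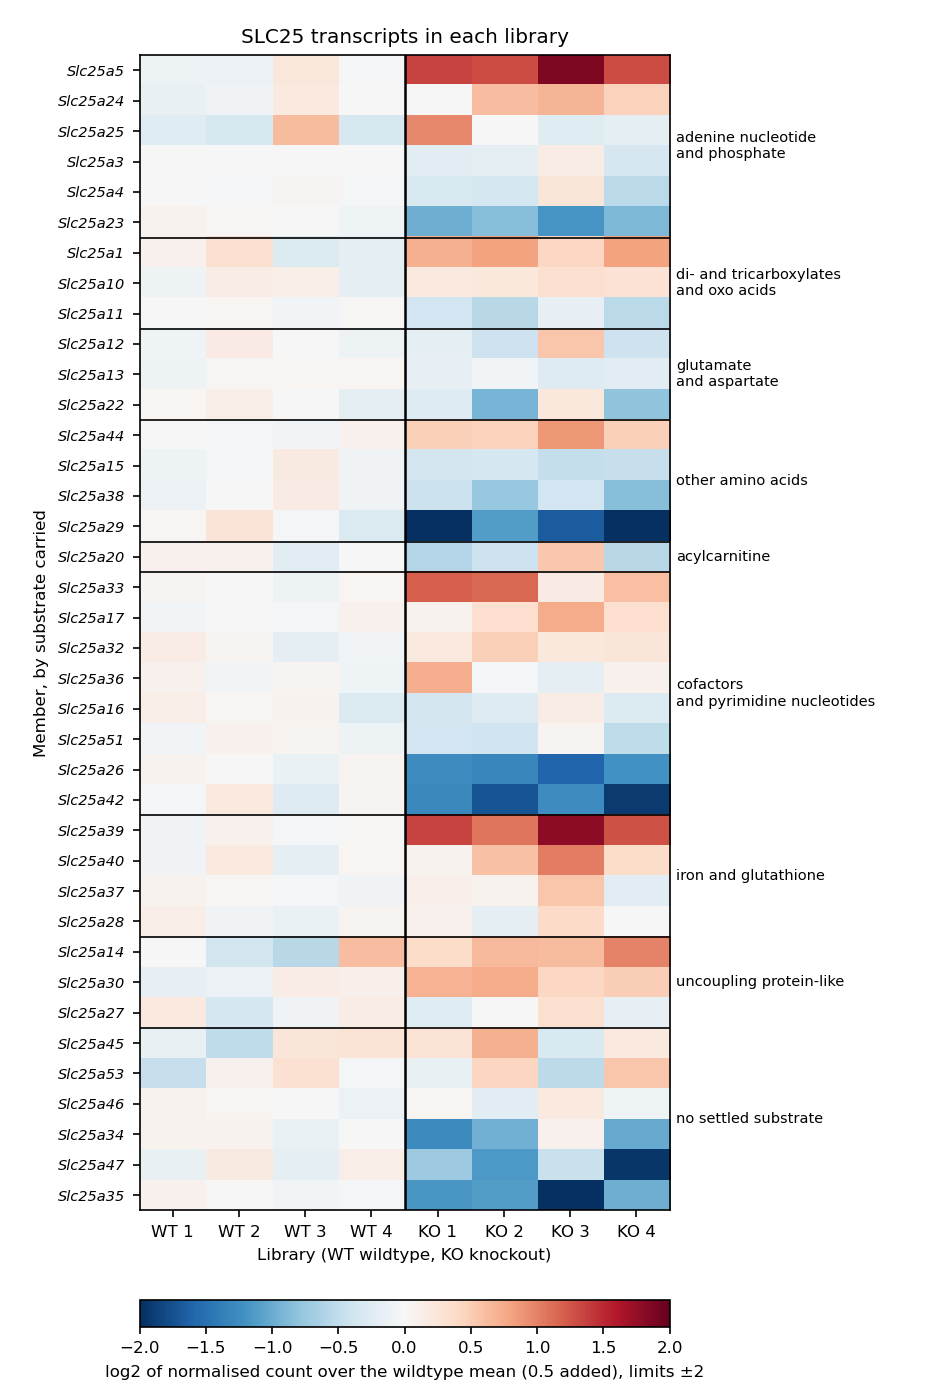
Heat map of 38 of the 39 members averaging 10 or more normalised counts (rows, grouped by substrate) in the 4 wildtype and 4 knockout libraries (columns), coloured by the log2 of the normalised count over the wildtype mean, with colours cut at 2 in either direction. Slc25a5 and Slc25a39 are high, and Slc25a42, Slc25a26, Slc25a29 and Slc25a35 low, in all 4 knockout libraries, while knockout replicate 3 differs from the other knockout libraries in Slc25a4, Slc25a12, Slc25a20 and Slc25a34.

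Promoter sequence is shown for 4 genes on which the results turn: the member that rose most, the member with the largest fall among those averaging 100 or more normalised counts, a member that shares its promoter region with another member that also fell, and the called member whose window held a motif searched for. Each window runs from 250 bases before to 50 bases after a RefSeq transcript start in GRCm38.p6 and is printed 5′ to 3′ on the strand of the gene. Slc25a5 lies at chrX:36795347-36795646 (+), Slc25a42 at chr8:70212232-70212531 (-), Slc25a29 at chr12:108835827-108836126 (-) and Slc25a34 at chr4:141623785-141624084 (-). Capitals mark a match to the motif AAGGTCA, read on either strand.
Slc25a5: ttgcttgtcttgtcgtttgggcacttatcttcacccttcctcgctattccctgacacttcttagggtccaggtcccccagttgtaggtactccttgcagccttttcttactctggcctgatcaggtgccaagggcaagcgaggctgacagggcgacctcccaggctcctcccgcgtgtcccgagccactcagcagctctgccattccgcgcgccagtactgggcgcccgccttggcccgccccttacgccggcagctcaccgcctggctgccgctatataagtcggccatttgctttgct
Slc25a42: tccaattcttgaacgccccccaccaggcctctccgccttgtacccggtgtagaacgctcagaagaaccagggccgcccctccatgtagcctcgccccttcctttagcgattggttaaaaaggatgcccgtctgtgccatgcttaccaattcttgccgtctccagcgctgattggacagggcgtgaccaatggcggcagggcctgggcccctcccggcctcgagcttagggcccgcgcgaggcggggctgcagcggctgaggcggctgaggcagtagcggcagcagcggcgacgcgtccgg
Slc25a29: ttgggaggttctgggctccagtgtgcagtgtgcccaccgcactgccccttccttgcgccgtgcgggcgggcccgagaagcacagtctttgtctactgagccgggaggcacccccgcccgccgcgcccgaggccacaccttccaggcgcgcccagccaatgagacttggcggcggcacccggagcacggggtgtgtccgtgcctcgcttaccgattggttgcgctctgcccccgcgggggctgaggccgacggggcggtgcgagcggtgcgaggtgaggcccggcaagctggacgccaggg
Slc25a34: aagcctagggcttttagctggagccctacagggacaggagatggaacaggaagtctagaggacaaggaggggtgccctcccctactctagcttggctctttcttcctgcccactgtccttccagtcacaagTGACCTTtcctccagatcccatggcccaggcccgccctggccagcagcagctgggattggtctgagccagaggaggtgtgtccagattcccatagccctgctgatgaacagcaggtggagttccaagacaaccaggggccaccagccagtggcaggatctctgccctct

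RefSeq windows were matched by symbol for 36 of the 47 members, with 46 windows in all. They were richer in G and C than the 32851 windows of all genes, with a median of 59.3% against 52.7%, and held a median of 15 CpG dinucleotides against 7. Among the windows printed, those of Slc25a5, Slc25a42 and Slc25a29 held 18, 26 and 32 CpG dinucleotides, and that of Slc25a34 held 1. The motif TGATGNAA, a composite site of stress-responsive ATF4 and C/EBP factors, was in none of the members' windows and in 3.97% of all windows. AAGGTCA, the site bound by oestrogen-related receptors, was in the window of Slc25a34 alone, starting 119 bases before the transcript start, and in 4.72% of all windows. GCGCATGC, the core of the nuclear respiratory factor NRF1 site, was in windows of Slc25a31 and Slc25a54 and in 2.71% of all windows. A match is a match of letters and says nothing of binding.

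The members lie on 19 chromosomes, and 4 pairs lie within 25000 bases of each other. Slc25a29 and Slc25a47 on chromosome 12 are transcribed away from each other, with 162 bases between the genes in GENCODE, so that the window printed for Slc25a29 includes the start of Slc25a47. Both were lower in knockout, with log2 fold changes of -1.79 and -0.99. The other neighbours did not share a pair of calls. Slc25a43 and Slc25a5, 18448 bases apart on chromosome X, stood at log2 fold changes of -1.03 and 1.48, the former not called.

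Nearly all of the family's RNA in wildtype heart came from 6 carriers. Levels between genes are compared here as normalised counts per kilobase of effective transcript length. On that scale Slc25a4, Slc25a3, Slc25a11, Slc25a5, Slc25a20 and Slc25a12, in this order, made up 89% of the summed level of the family in wildtype and 87.7% in knockout. Their wildtype levels were 35969 ± 1031, 11978 ± 93.5, 4226 ± 123, 2933 ± 342, 1470 ± 138 and 1338 ± 116 (SD, n = 4). The last 2 of these, Slc25a20 and Slc25a12, lay within their spread of each other, and all other neighbours in this order differed by more than their SDs. Slc25a4 alone held 55.3% in wildtype and 48.5% in knockout, and Slc25a5 went from 4.5% to 12.8%, past Slc25a11, which held 6.5% and 5.09%.

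Slc25a4 encodes ANT1, the ADP/ATP carrier of adult heart and skeletal muscle, and Slc25a5 encodes ANT2, the form of proliferating and non-muscle cells. Taken in the order of their replicate numbers, as in all lists below, the wildtype libraries held 2930, 2877, 3671 and 3065 normalised counts of Slc25a5 and the knockout libraries 8011, 7787, 11468 and 7706. Every knockout library lay above every wildtype library, and knockout replicate 3 was the highest. The log2 fold change was 1.48 ± 0.16 (SE, DESeq2 adjusted p = 1.49e-19), 2.79-fold, and 1.32 ± 0.10 without knockout replicate 3. Pseudogene copies that share up to 900 bases with Slc25a5 held at most 1 count in a library.

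Slc25a4 had 62465, 61339, 65195 and 61448 normalised counts in wildtype and 50738, 48908, 73738 and 43261 in knockout. Knockout replicates 1, 2 and 4 lay below the wildtype libraries and knockout replicate 3 above them. The log2 fold change of -0.21 ± 0.16 did not pass the test (DESeq2 adjusted p = 0.336). Without knockout replicate 3 it was -0.40 ± 0.08 (adjusted p = 5.56e-06), and with all libraries it was -0.52 (adjusted p = 3.30e-04) under scaling by total counts and 0.20 (adjusted p = 0.22) under total counts without mitochondrial rRNA.

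The level of both ADP/ATP carriers summed was 38896 ± 1354 (SD, n = 4) in wildtype and 39288 ± 9397 (SD, n = 4) in knockout, or 34690 ± 2366 (SD, n = 3) without knockout replicate 3. Within that sum the share of Slc25a5 was 7.1, 7.1, 8.4 and 7.51% in the wildtype libraries and 20.5, 20.6, 20.2 and 22.5% in the knockout libraries. Knockout replicate 3, the lowest of the knockout libraries here, was close to replicates 1 and 2, and it was high for both genes. Slc25a31, the ADP/ATP carrier of the testis, had at most 8 counts in any library.

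**Figure D2:**
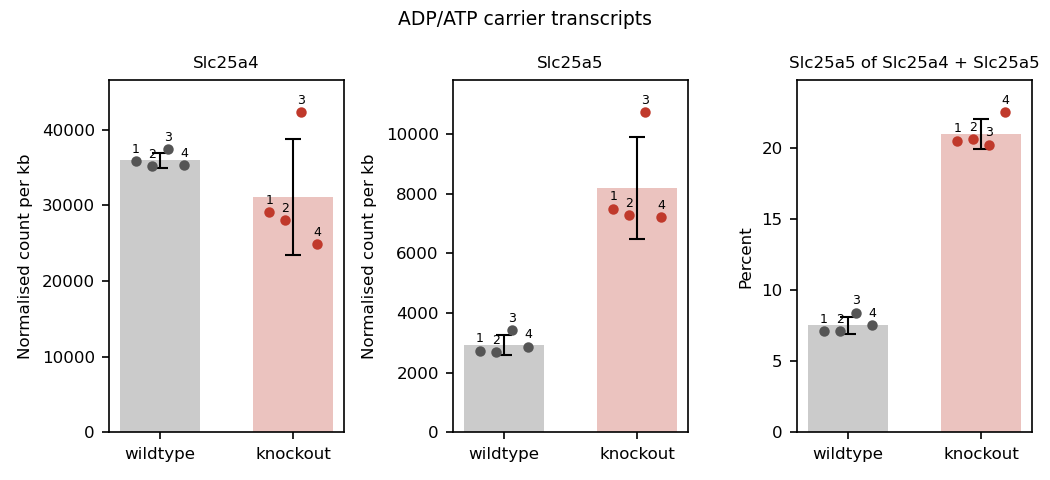
Levels of Slc25a4 and Slc25a5 in normalised counts per kilobase and the share of Slc25a5 in their sum in percent, for wildtype and knockout; bars are group means, error bars SD (n = 4) and numbered points the libraries by replicate. The share is 7.1 to 8.4% in wildtype and 20.2 to 22.5% in knockout, whereas knockout replicate 3 is the highest library for both genes.

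Slc25a3, the phosphate carrier that also brings copper into the matrix, had 14730, 14685, 14488 and 14545 normalised counts in wildtype and 12674, 12939, 16215 and 11633 in knockout. It showed the same layout as Slc25a4, with knockout replicate 3 alone above wildtype. Across all 8 libraries the log2 fold change came to -0.13 ± 0.12 and was not called (DESeq2 adjusted p = 0.422). Leaving out knockout replicate 3 gave -0.24 ± 0.07 (adjusted p = 0.00193). With all 8 libraries it was called lower under scaling by total counts (-0.43, adjusted p = 5.61e-06) and higher under total counts without mitochondrial rRNA (0.29, adjusted p = 0.00242), so its direction turned on the scaling.

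The ATP-Mg/phosphate carriers, which are regulated by calcium and set the total pool of adenine nucleotides in the matrix, had 1 called member. Slc25a23 had 709, 684, 665 and 631 normalised counts in wildtype and 342, 373, 297 and 362 in knockout. The groups were far apart and Slc25a23 fell by 0.96 on the log2 scale (SE 0.11, DESeq2 adjusted p = 3.09e-16). Slc25a24 (log2 fold change 0.47) and Slc25a25 (0.22) did not pass the test. Of the 8 enzymes listed as users of adenine nucleotides and phosphocreatine, 3 were higher and 3 lower. The creatine kinase gene Ckmt1 was at 1.69 to 8.93 normalised counts in wildtype and 18.6 to 65.4 in knockout (log2 fold change 4.0). The creatine kinase genes Ckmt2 and Ckm were far more abundant, with wildtype means of 26706 and 27899. Their log2 fold changes were -0.26 (DESeq2 adjusted p = 0.0754, not called) and -0.54 (adjusted p = 1.72e-04). Both lie outside the rule for naming genes and were added after their values were seen. The cytosolic adenylate kinase gene Ak1 fell by 0.69 on the log2 scale.

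Among the carriers of di- and tricarboxylates, Slc25a11, the oxoglutarate carrier that exchanges malate and oxoglutarate in the malate-aspartate shuttle, had 6402, 6624, 6190 and 6530 normalised counts in wildtype and 4961, 4372, 5767 and 4451 in knockout. All knockout libraries were lower and Slc25a11 fell by 0.40 on the log2 scale (SE 0.11, DESeq2 adjusted p = 0.00149), although under total counts without mitochondrial rRNA the value was 0.02. Slc25a1, the citrate carrier that exports citrate for lipid synthesis, went the other way.

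Its normalised counts were 81, 95.9, 62.6 and 66.8 in wildtype and 126, 134, 103 and 134 in knockout. The groups did not overlap and the log2 fold change was 0.71 ± 0.21 (DESeq2 adjusted p = 0.00291), or 0.42 and no longer called under scaling by total counts. The dicarboxylate carrier Slc25a10 stood at 0.26 (adjusted p = 0.181), with all knockout libraries above wildtype, and the oxodicarboxylate carrier Slc25a21 had at most 2 counts and no adjusted p. Of 11 genes for enzymes that make or use citrate and dicarboxylates, 3 were higher and 3 lower, or 4 and 4 without knockout replicate 3. Acaca, the cytosolic acetyl-CoA carboxylase of fatty acid synthesis, rose by 1.92 on the log2 scale, the malic enzyme gene Me2 rose by 1.08, and Acacb, the carboxylase isoform at the outer membrane, fell by 0.69, or stood at -0.28 without a call under total counts without mitochondrial rRNA.

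None of the 4 glutamate and aspartate carriers passed the test. Slc25a12, the aspartate/glutamate carrier aralar of the malate-aspartate shuttle, had 2950, 3505, 3112 and 2918 normalised counts in wildtype and 2761, 2330, 4605 and 2347 in knockout. Knockout replicate 3 was above all wildtype libraries and the other knockout libraries were below them. As a log2 fold change this was -0.05 ± 0.21 (DESeq2 adjusted p = 0.883), -0.33 ± 0.10 without that library (adjusted p = 0.00559) and 0.35 under total counts without mitochondrial rRNA. Its relative citrin, Slc25a13, stood at -0.17. Slc25a22, a glutamate carrier, stood at -0.38, and at -0.64 (adjusted p = 0.00147) without knockout replicate 3, and Slc25a18, another glutamate carrier, had at most 6 counts.

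Of 7 enzymes of the malate-aspartate and glycerol phosphate shuttles, of which the latter needs no SLC25 carrier, 2 were higher and 1 was lower, or 3 lower without knockout replicate 3. Gpd1, the cytosolic glycerol-3-phosphate dehydrogenase, had a log2 fold change of 1.98, Got1, the cytosolic aspartate aminotransferase, 0.78, and Mdh1, the cytosolic malate dehydrogenase, -0.38, or 0.04 under total counts without mitochondrial rRNA. Of 10 genes for glutamate, proline and ornithine enzymes, 9 were tested, with 4 higher and 1 lower, or 2 lower without that library. The proline synthesis genes Pycr1 and Aldh18a1 rose by 4.45 and 3.10 on the log2 scale and the branched-chain aminotransferase gene Bcat1 by 3.43.

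The carriers of other amino acids had 4 of 5 members called, 1 higher and 3 lower. Over all records tested 33.7% were called, 18.2% higher and 15.5% lower, and a group of 5 is too small to compare with that share. Slc25a44, the carrier of branched-chain amino acids, had 336, 333, 324 and 357 normalised counts in wildtype and 472, 467, 614 and 469 in knockout. The groups did not overlap, and 3 knockout libraries were nearly equal with replicate 3 above them. On the log2 scale Slc25a44 rose by 0.58 ± 0.13 (SE, DESeq2 adjusted p = 7.55e-05), 1.5-fold, and 0.47 ± 0.11 without knockout replicate 3.

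Slc25a38, the glycine importer needed for the opening step of haem synthesis, had 229, 247, 277 and 235 normalised counts in wildtype and 182, 146, 188 and 137 in knockout, with no overlap, and it fell by 0.60 on the log2 scale (SE 0.16, DESeq2 adjusted p = 9.32e-04). Its effective length in the files was 1483 ± 49.3 bases in wildtype and 1224 ± 66.8 in knockout (SD, n = 4), all knockout libraries being shorter. Without the length correction its log2 fold change was -0.88, and under total counts without mitochondrial rRNA -0.18 and not called. Slc25a29, a carrier of basic amino acids, fell by 1.79 on the log2 scale (adjusted p = 4.87e-08), from 71.5 to 105 normalised counts in wildtype to 15.7 to 40.1 in knockout. No called member had a larger log2 fold change in either direction, and its counts were low. The ornithine carrier Slc25a15 fell by 0.41 (adjusted p = 0.00882), a call that was lost without wildtype replicate 3 (adjusted p = 0.062) and turned to 0.01 under total counts without mitochondrial rRNA. Its relative Slc25a2 had at most 14 counts and did not pass the test.

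Slc25a38 and Slc25a32 serve glycine and folate metabolism. Of 10 genes of folate, glycine and haem enzymes 5 were higher and 1 lower (2 lower without knockout replicate 3), with log2 fold changes of 5.68 for Mthfd2 and 4.51 for Mthfd1l, of mitochondrial folate metabolism, and 1.79 for the mitochondrial serine hydroxymethyltransferase gene Shmt2. The folate carrier gene Slc25a32 stood at 0.29 ± 0.15 (DESeq2 adjusted p = 0.122), with all knockout libraries (190 to 231 normalised counts) above the wildtype libraries (147 to 184).

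Slc25a20, the carnitine/acylcarnitine carrier that brings long-chain fatty acids into the matrix, had 2533, 2540, 2064 and 2395 normalised counts in wildtype and 1593, 1787, 3452 and 1615 in knockout. Knockout replicate 3 exceeded every wildtype library and the other knockout libraries lay below all of them. On the log2 scale the change was -0.17 ± 0.24 (DESeq2 adjusted p = 0.621), -0.52 ± 0.10 without that library (adjusted p = 2.95e-06) and 0.23 under total counts without mitochondrial rRNA. A transcript of Slc25a20 shares up to 366 bases at 95% identity or more with 17 other records, 3 of them in the files with summed counts of up to 184% of the member's, so its value is uncertain. Of the 7 genes of the carnitine shuttle 1 was higher and 3 were lower, and without knockout replicate 3 none was higher and 3 were lower. Cpt2, which rebuilds acyl-CoA inside the matrix, fell by 1.14 on the log2 scale, the carnitine transporter gene Slc22a5 fell by 0.61, and Cpt1a rose by 0.65. Slc22a5 was not called under total counts without mitochondrial rRNA (-0.18). The call of Cpt1a (adjusted p = 0.0429) was lost on leaving out each of the wildtype libraries (adjusted p of 0.0526 to 0.124) or knockout replicate 4 (0.0582) or 3, where the log2 fold change was 0.30 (0.151). It was also lost in edgeR (0.0767) and under scaling by total counts (0.301).

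Of the 9 carriers of cofactors and pyrimidine nucleotides, 1 was higher and 2 were lower. Slc25a42, the coenzyme A carrier of the inner membrane, had 473, 550, 401 and 496 normalised counts in wildtype and 197, 145, 201 and 127 in knockout. All knockout libraries were below wildtype by a wide gap. It fell by 1.53 on the log2 scale (SE 0.18, DESeq2 adjusted p = 4.15e-15), which is 2.88-fold lower.

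Slc25a26, which imports S-adenosylmethionine, the methyl donor for mitochondrial RNA and protein modification, had 300, 285, 262 and 297 normalised counts in wildtype and 120, 115, 95.2 and 124 in knockout. The spread within each genotype was small beside the gap, and it fell by 1.33 on the log2 scale (SE 0.15, DESeq2 adjusted p = 3.13e-18). Slc25a33, a pyrimidine nucleotide carrier, had 140, 135, 125 and 138 normalised counts in wildtype and 308, 298, 151 and 205 in knockout. Its knockout libraries were all higher but differed among themselves, with replicate 3 nearest to wildtype. Its log2 fold change was 0.84 ± 0.23 (DESeq2 adjusted p = 0.00151), 1.0 without knockout replicate 3, and 0.55 and no longer called under scaling by total counts.

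Not called in this group were Slc25a36, the related pyrimidine nucleotide carrier, Slc25a51, the NAD carrier, Slc25a16, the peroxisomal carrier Slc25a17 and Slc25a32. Slc25a51 stood at -0.29, and at -0.43 (DESeq2 adjusted p = 4.03e-05) without knockout replicate 3. Of 12 genes of cofactor enzymes 1 was higher and 4 were lower, and the largest changes among those called were those of Cmpk2 (-0.77), a nucleotide kinase, Nmnat1 (-0.46), of NAD synthesis in the nucleus, and the mitochondrial NAD kinase gene Nadk2 (-0.43). Cmpk2 was no longer called without wildtype replicate 2, 3 or 4 or knockout replicate 2 or 3 (adjusted p of 0.0527 to 0.119) or in edgeR (0.0503). Under total counts without mitochondrial rRNA none of these 3 genes was called (adjusted p of 0.411 to 0.943).

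In the iron and glutathione group 2 of 4 were higher, beside 18.2% of all records tested, and 1 of 4 without knockout replicate 3. Slc25a39, a mitochondrial glutathione importer, had 1192, 1315, 1208 and 1263 normalised counts in wildtype and 3169, 2616, 4325 and 3003 in knockout. Each knockout library was far above the highest wildtype library. Knockout over wildtype, the log2 fold change was 1.4 ± 0.16 (DESeq2 adjusted p = 1.04e-17), 2.63-fold, and 1.23 ± 0.10 without knockout replicate 3.

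Slc25a40, its close relative, had 173, 209, 160 and 187 normalised counts in wildtype and 191, 273, 369 and 236 in knockout. The groups overlapped, since knockout replicate 1 lay below wildtype replicate 2. On the log2 scale it rose by 0.55 ± 0.21 (SE, DESeq2 adjusted p = 0.0304). That call did not hold without wildtype replicate 1 (adjusted p = 0.0934), 3 (0.105) or 4 (0.0675), or without knockout replicate 2 (0.0722) or 3 (0.102), and it was 0.25 under scaling by total counts. The iron importers mitoferrin 1 (Slc25a37) and mitoferrin 2 (Slc25a28) stood at 0.15 and 0.09 and were not called.

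Of the 11 iron-sulfur and glutathione genes 5 were higher and 3 lower, or 4 lower without knockout replicate 3, and all 5 that rose belong to glutathione metabolism. Gss, the glutathione synthetase, rose by 2.38 on the log2 scale, and the subunits of the rate-limiting enzyme, Gclm and Gclc, rose by 1.58 and 1.165.

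Of the carriers that resemble uncoupling proteins, 1 of 3 was higher. Slc25a30 had 84.8, 87.1, 105 and 102 normalised counts in wildtype and 154, 158, 127 and 134 in knockout. The groups did not overlap and the log2 fold change was 0.59 ± 0.17 (DESeq2 adjusted p = 0.00311), or 0.30 and no longer called under scaling by total counts. Slc25a27 (-0.01) and Slc25a14 (0.70, at most 44 counts) were not called. Of 5 proteins with the carrier fold but other symbols, Ucp1, Ucp2, Ucp3, Mtch1 and Mtch2, 1 was called: Mtch1, a protein of the outer membrane, rose by 0.33 on the log2 scale, but stood at 0.16 without a call when lengths were not corrected for and at 0.03 under scaling by total counts. Without knockout replicate 3, Ucp3 was also called, at -1.57 (DESeq2 adjusted p = 1.69e-10) against -0.97 (0.118) in all 8 libraries. Ucp3 lies outside the rule for naming genes and was added after its values were seen.

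Of the 9 members to which no substrate was assigned, 7 were tested and 3 were lower. Slc25a34, the seventh most abundant member in wildtype per kilobase, had 3115, 3104, 2704 and 2967 normalised counts in wildtype and 1228, 1519, 3142 and 1481 in knockout. Knockout replicate 3 was above every wildtype library, whereas the other knockout libraries were near or under 1519. As a log2 fold change this was -0.69 ± 0.25 (DESeq2 adjusted p = 0.0226). It was -1.08 ± 0.10 when knockout replicate 3 was left out (adjusted p = 4.16e-24). Leaving out wildtype replicate 1, 2 or 4 or knockout replicate 1, 2 or 4 ended the call, with log2 fold changes of -0.67, -0.67, -0.69, -0.54, -0.60 and -0.60 and adjusted p of 0.0646, 0.0612, 0.0518, 0.0685, 0.0783 and 0.084, and under total counts without mitochondrial rRNA it was -0.29.

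Slc25a35, a relative of Slc25a34, fell by 1.32 on the log2 scale (DESeq2 adjusted p = 2.20e-05), from 81.9 to 90.2 normalised counts in wildtype to 16.3 to 43.1 in knockout. Slc25a47 fell by 0.99 (adjusted p = 0.0132), on 45.1 to 59 against 13.2 to 38 normalised counts. That call was lost without wildtype replicate 2 (-0.92, adjusted p = 0.0647) or 4 (-0.94, 0.0636), without knockout replicate 4 (-0.75, 0.0548), and under total counts without mitochondrial rRNA (-0.58, 0.144). Slc25a46, a protein of the outer membrane that takes part in its dynamics, was at -0.01, and Slc25a45, Slc25a53 and Slc25a43 were not called. Slc25a48 had at most 1.15 counts and no adjusted p, and Slc25a41 and Slc25a54 were at 0 in all 8 libraries.

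Among all 26 members tested and not called, 18 averaged 100 or more normalised counts, and the highest log2 fold change among them was 0.47 (Slc25a24). Dropping knockout replicate 3 added 6 calls, all lower: Slc25a4, Slc25a3, Slc25a12, Slc25a20, Slc25a22 and Slc25a51. It removed 1, Slc25a40. Of the 6 most abundant carriers, then, Slc25a5 was called higher and Slc25a11 lower both with and without that library, and the calls of the other 4 turned on that library, those of Slc25a4 and Slc25a3 also on the scaling. Slc25a11, Slc25a4, Slc25a3, Slc25a12 and Slc25a20 had values above 0 when all libraries were scaled by total counts without mitochondrial rRNA.

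**Figure D3:**
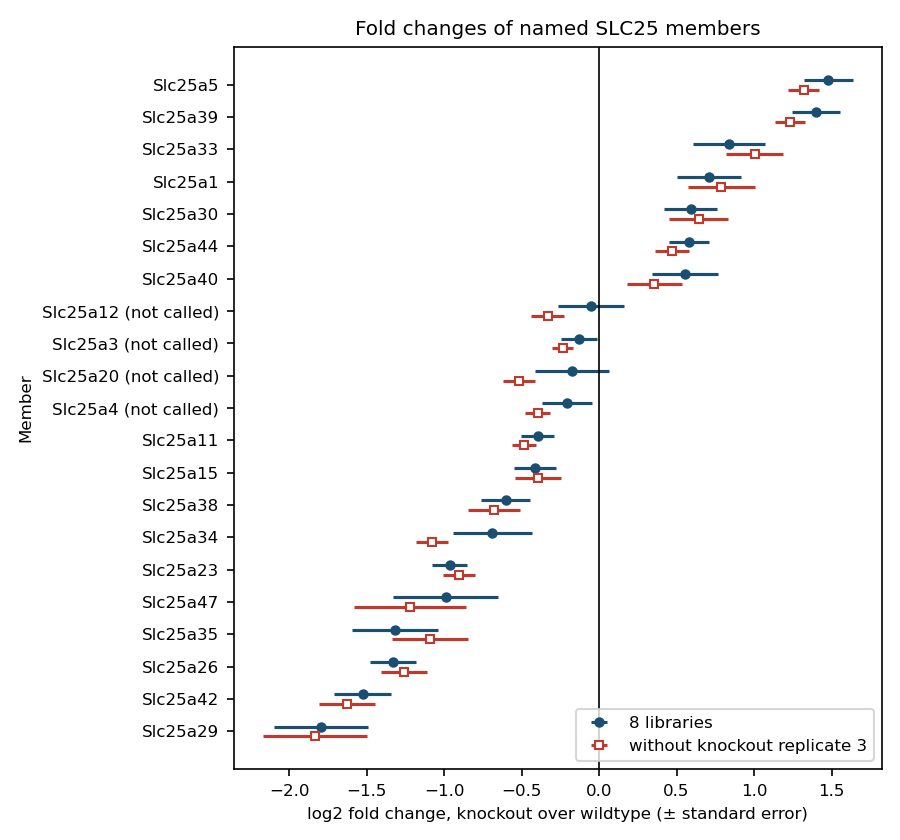
Log2 fold changes of knockout over wildtype (x axis, ± standard error) of the 17 called members and the other highly abundant members (y axis), in all 8 libraries (circles) and without knockout replicate 3 (open squares). Slc25a34, Slc25a20, Slc25a12 and Slc25a4 move to lower values without that library, from -0.69 to -1.08 for Slc25a34, while Slc25a42, Slc25a26 and Slc25a23 stay close to their value.

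Carriers of like substrate were compared within each library by the log2 ratio of their levels per kilobase, in which the scaling between libraries cancels. All 12 pairs listed were tested by a two-sided exact permutation test over the 70 assignments of the libraries, where p = 0.0286 is the smallest the design allows. In 6 pairs the ratios of the genotypes did not overlap and gave that p, with an adjusted p of 0.0571 over the 12 pairs, so none passed the correction. That outcome turned on the pseudocount, through a pair with Slc25a18, as given in the last section. The pairs were chosen with earlier results known, and the share of non-overlapping ratios among other gene pairs was not computed. Each of the 6 holds a member called above, and Slc25a23 recurs, so the ratios in part restate those calls. The shifts in these 6 pairs, knockout minus wildtype, were -1.70 for Slc25a4/Slc25a5, -1.42 for Slc25a23/Slc25a24, -1.17 for Slc25a23/Slc25a25, 0.86 for Slc25a39/Slc25a40, 0.67 for Slc25a10/Slc25a11 and 0.64 for Slc25a33/Slc25a36.

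The log2 ratio of Slc25a4 to Slc25a5 was 3.71, 3.71, 3.45 and 3.62 in the wildtype libraries and 1.96, 1.95, 1.98 and 1.79 in the knockout libraries. Knockout replicate 3, though the highest of the knockout libraries, was close to replicates 1 and 2. The mean ratio went from 12.3 to 3.78. The log2 ratio of Slc25a23 to Slc25a24 was 3.48, 3.34, 3.05 and 3.16 in wildtype and 2.29, 1.78, 1.4 and 1.90 in knockout, a mean ratio of 9.57 against 3.58. That of Slc25a39 to Slc25a40 was 3.75, 3.61, 3.88 and 3.72 in wildtype and 5.02, 4.22, 4.51 and 4.63 in knockout. In each of these the 4 knockout libraries lay on the same side of all wildtype libraries.

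The remaining 6 pairs overlapped. The shifts were 0.06 for Slc25a12/Slc25a13, -0.05 for the mitoferrins Slc25a28/Slc25a37, 0.15 for Slc25a14/Slc25a30, 1.30 for Slc25a4/Slc25a31, 1.35 for Slc25a18/Slc25a22 and 1.84 for Slc25a15/Slc25a2, with two-sided exact permutation p of 0.943, 0.743, 0.686, 0.4, 0.0571 and 0.286. The last 3 rest on a member with a mean level under 10 normalised counts per kilobase. A p that misses the threshold does not show that the ratios were equal.

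**Figure D4:**
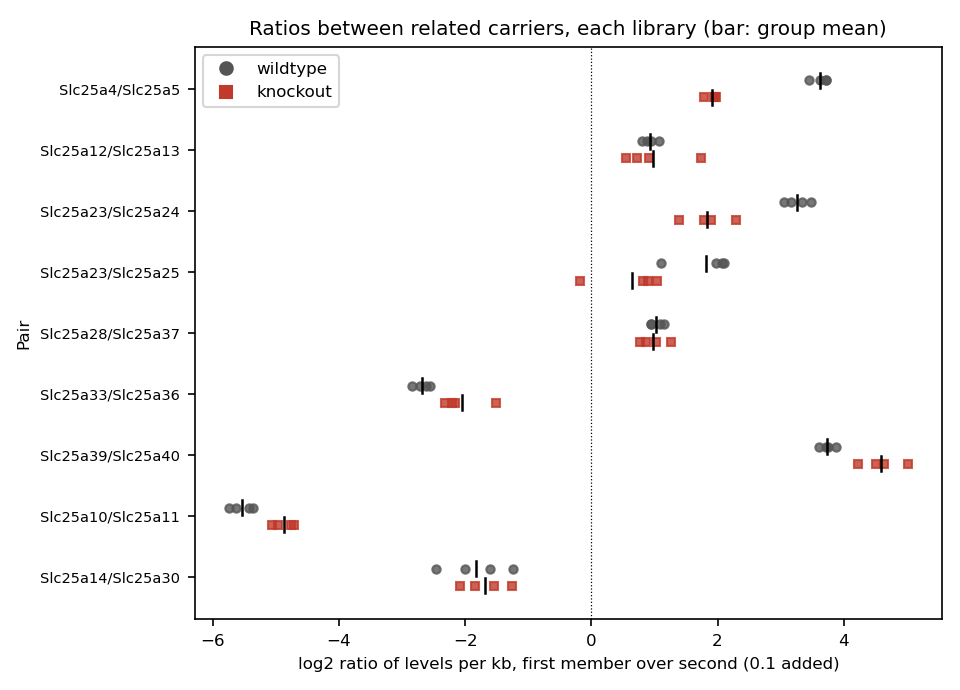
Log2 ratio of the levels per kilobase of related carriers (x axis) in each wildtype (circles) and knockout (squares) library for 9 of the 12 pairs (y axis), leaving out 3 pairs with a member under 10 normalised counts per kilobase; bars are group means. The genotypes do not overlap in 6 pairs, with the widest gap for Slc25a4/Slc25a5, and do in Slc25a12/Slc25a13, Slc25a28/Slc25a37 and Slc25a14/Slc25a30.

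Over the 10 lists of enzymes and transporters that work beside the carriers, 28 of 95 genes tested were higher and 24 lower, 54.7% called against 33.7% of all records tested. Without knockout replicate 3 the counts were 28 higher and 33 lower, 64.2% against 36.6%. Scaling by total counts gave 20 higher and 44 lower, and total counts without mitochondrial rRNA 52 higher and 3 lower. Over all records these scalings gave 1924 higher and 5912 lower, and 7950 higher and 1111 lower, so these swings were not particular to the lists. Among 15 other transporters of the mitochondrial membranes 3 were higher and 5 lower, or 7 lower without knockout replicate 3. Sfxn1, the mitochondrial serine importer, rose by 1.07 on the log2 scale, Abcb8, an ABC transporter of the inner membrane, fell by 0.76 and Sfxn5 fell by 0.68. The call of Sfxn5 was lost without wildtype replicate 3 or 4 or knockout replicate 1 or 3 (adjusted p of 0.0661 to 0.125) and under total counts without mitochondrial rRNA (0.482). These lists, like the substrate groups, were drawn up with earlier results of these data known.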

How the data were processed

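RNA-seq of 4 wildtype and 4 Lrpprc knockout whole hearts was analysed, with groups and replicate numbers taken from the sample titles. The authors depleted cytoplasmic rRNA, primed with random hexamers and quantified paired-end, reverse-stranded reads with RSEM 1.2.31 and Bowtie2 against GENCODE M13 (mm10), to which they had added mitochondrial sequences with 50 adenines. RSEM shares out reads that fit more than a single gene. The deposited expected counts can therefore be fractions and were rounded here. The deposited TPM values, from the same RSEM runs by the authors, served as an alternative for ratios. The deposited lengths and effective lengths (other values by the authors, in bases) gave the length correction. A deposited table of the authors' own fold changes and p-values, and 8 columns of a deposited table of normalised counts whose names match no sample label, were not used.

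Symbols came from GENCODE M21, in which 50339 of 50563 Ensembl identifiers were found. DESeq2 1.42.0 (R 4.3.3) was fitted to all 50599 records with genotype alone, effective lengths as offset (values under 1 set to 1) and median-of-ratios factors. Log2 fold changes are unshrunken, p-values are adjusted over all records and the threshold is 0.05. A normalised count is a count divided by these factors, and its level is that count per kilobase of effective length. Ratios used a pseudocount of 0.1. The alternatives tried were TMM in edgeR 4.0.16, counts without the length correction, a minimum of 10 counts in 4 libraries, factors estimated on nuclear records, total counts (all, or minus mitochondrial rRNA) as the scale, the replicate number as a block, and the omission of each library in turn. Copies were sought with BLAST 2.17.0 at 95% identity over 200 bases. The fits were tested on simulated data.

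Library totals were 35218541 to 47743376. Libraries of a genotype differed by more than counting noise (chi-square per degree of freedom 4.40 to 48.3), so none was counted as the same library deposited again. The study's methods describe 4 hearts per genotype. Per-library values were given for the 12 members with the largest changes among those called with a mean of at least 100, and for the 6 with the highest wildtype level. Changes are given for all other called members and for at most 3 called genes of each partner list. The family as a subject, its substrate groups, the pairs and the lists were chosen with earlier results of these data known, although membership itself follows from the symbol alone. Single values of some genes are not reported here.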

Additional observations from a re-analysis of the deposited data

Results flagged for a closer look

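In groups of 4, a library was picked out when its gap to the nearest of the others was too wide for the group's range by Dixon's test at the 95% level. This happened in 5 of the 68 groups scanned, where chance alone gives about 3.4. Of these, 4 concern knockout replicate 3. Its normalised count was 11468 for Slc25a5 (7706 to 8011 in the other knockout libraries), 614 for Slc25a44 (467 to 472), 3452 for Slc25a20 (1593 to 1787) and 3142 for Slc25a34 (1228 to 1519). The same library had the lowest fibroblast, macrophage, smooth muscle, endothelial, atrial and adipose marker sums of the knockout libraries (15996, 2573, 1829, 9564, 35603 and 5.32) and the highest erythroid sum (53861), and their part in these values was not tested. For Slc25a5 and Slc25a44 the other knockout libraries were still above all wildtype libraries, whereas for Slc25a20 and Slc25a34 they were below them. The log2 ratio of Slc25a23 to Slc25a25 was 1.1 in wildtype replicate 3 and 1.98 to 2.10 in the other wildtype libraries. In that library Slc25a25 had 380 normalised counts, against 195 to 206 in the others.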

How the results depend on the processing

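The number of members called was 17 and stayed between 14 and 24 under the alternatives. Scaling by total counts gave 3 higher and 18 lower members, and 44 partner genes lower. Scaling by total counts without mitochondrial rRNA gave 19 higher and 5 lower members, and 52 partner genes higher and 3 lower. All records shifted likewise, to 1924 higher and 5912 lower under the former scaling and 7950 higher and 1111 lower under the latter. Relative to the median of all records averaging 10 or more normalised counts, the median of the members tested was -0.07 in the main scaling and -0.09 in both of these scalings. Under that last scaling the log2 fold changes of Slc25a4, Slc25a3, Slc25a11, Slc25a12, Slc25a15 and Slc25a20 turned to 0.202, 0.289, 0.0211, 0.353, 0.0133 and 0.229. Leaving out each library gave 15 to 22 members called, 6 to 9 higher and 8 to 16 lower, the 16 without knockout replicate 3, and 46 to 61 partner genes called. Slc25a12 ranged from -0.333 without knockout replicate 3 to 0.0559 without knockout replicate 2, and was 0.00737 without wildtype replicate 2 and 0.0515 without knockout replicate 4. Of the other values of named members, 275 kept direction and call, 25 lost the call and 6 gained it. The causes were not tested.

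With a replicate block, 14 members were called (6 higher, 8 lower), all among the 17, and the calls of Slc25a15, Slc25a40 and Slc25a47 were lost, as were those of the named partner genes Sfxn5 (adjusted p = 0.0641) and Cpt1a (0.0979). Deviations of libraries with the same number correlated at -0.05 to 0.09, so the numbers were not taken to pair the libraries. Sign flips within replicate numbers left all ratio shifts as they were, with a smallest adjusted p of 0.214, which that design could not lower to the threshold.

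With a pseudocount of 1 or with deposited TPM, a 7th pair reached the smallest p and the adjusted p was 0.049 for all 7: Slc25a4/Slc25a5 (-1.70 and -1.70), Slc25a18/Slc25a22 (0.998 and 0.82), Slc25a23/Slc25a24 (-1.41 and -1.37), Slc25a23/Slc25a25 (-1.16 and -1.15), Slc25a33/Slc25a36 (0.63 and 0.62), Slc25a39/Slc25a40 (0.86 and 0.87) and Slc25a10/Slc25a11 (0.66 and 0.66). The adjusted p of these pairs thus turned on Slc25a18, which had at most 6 counts. Slc25a4/Slc25a31 turned to -0.0405 with TPM, Slc25a12/Slc25a13 to -0.042 without division by length and to -0.193 without knockout replicate 3 (range -0.193 to 0.201), Slc25a28/Slc25a37 to 0.052 without division by length and to 0.019 without knockout replicate 2 (range -0.142 to 0.019), and Slc25a14/Slc25a30 to -0.067 without wildtype replicate 3 (range -0.067 to 0.343). Depth limits Slc25a2, Slc25a18, Slc25a31, Slc25a43 and Slc25a48, each with at most 14 counts in a library.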
